A study of Rattus norvegicus with 18 samples.

Results

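Nppb, Adamts1, Gys1, Tnfaip6, Slc17a6, Tmem51, A3galt2 and Veph1 were chosen by their measured expression difference at 6 h, as genes with the largest rises in rat kidney cells exposed to aristolochic acid for that time. They are 8 of the 14217 genes with a probe set of a single gene symbol on the array, carried by 10 probe sets of 31099, and each was among the 9015 genes tested. The cells were NRK-52E, an established rat line that its labels describe as renal proximal tubular and of the Osborne-Mendel strain. Confluent cultures received 1.65 µM aristolochic acid (AA) in 0.1% DMSO, a dose given as the concentration that inhibits by 10 percent at 72 h, or 0.1% DMSO alone. RNA was taken after 6, 24 or 72 h, so that each of the 3 times had an AA group and a DMSO group of 3 arrays, named below by agent and time (AA 6 h, DMSO 24 h). All groups thus shared the line, the plating to confluence and the solvent, and the controls differed only in the lack of AA. The 3 samples of each group are labelled as biological replicates, from 3 studies at each time, without details of passage or day. The p-values therefore speak only of the variation among those samples.

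Aristolochic acid is a plant nitrophenanthrene that is reduced in cells to a species that binds DNA, and it injures the kidney proximal tubule. The 8 genes belong to no single pathway. Nppb encodes a secreted natriuretic peptide, a hormone of the stretched heart that raises cyclic GMP through its receptor. Adamts1 encodes a secreted metalloprotease that cuts matrix proteoglycans, and Tnfaip6 a secreted protein that binds hyaluronan and is induced by inflammatory cytokines. Gys1 encodes a glycogen synthase. Slc17a6 encodes a vesicular glutamate transporter best known from neurons, A3galt2 a galactosyltransferase that acts on glycosphingolipids, Tmem51 a membrane protein and Veph1 a protein with a pleckstrin homology domain.

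Values are the log2 expression that the authors deposited, 1 per probe set and array, and a difference is AA minus DMSO on that scale unless stated otherwise. Many weak probe sets lie near log2 2, so a level under log2 4 is called near the floor, and a difference against such a level depends on the background model. The array medians lay between log2 4.03 and 4.20, and any pair of arrays in the same group had r between 0.996 and 0.999 over the probe sets. Of 12 proximal tubule markers on the array, 2 (Aqp1 and Ggt1) reached log2 4 in any group, while Lrp2, Cubn and Slc34a1 were near the floor in all 6 groups. Of 11 epithelial markers 3 (Krt8, Cdh2 and Tjp1) reached that level, as did 5 of 10 fibroblast markers (Col1a1, Col1a2, Col3a1, Acta2 and Vim). So did 1 of 5 endothelial markers (Tek) and 2 of 6 immune markers (Cd68 and Cd14). Group means ran from 4.19 to 6.21 for Tek and were at most 5.23 for Cd68, far below Cd14. The sums that follow therefore change with Tek for endothelium and mainly with Cd14 for immune cells. A change in the content of cell types was not tested. The summed marker level, as log2 of the sum, differed without overlap between AA and DMSO for some lists at each time. At 6 h it was 7.28 to 8.09 in AA against 6.70 to 6.90 in DMSO for the proximal tubule list, 14.77 to 14.95 against 14.43 to 14.60 for epithelium and 11.95 to 12.01 against 11.48 to 11.82 for immune cells. At 24 h it was 15.87 to 16.05 against 15.69 to 15.87 for fibroblasts. At 72 h it was 6.96 to 7.03 against 8.63 to 8.71 for the proximal tubule list, 5.01 to 5.26 against 6.43 to 6.65 for endothelium and 14.47 to 14.57 against 14.33 to 14.43 for epithelium. At 72 h the signal of the actin control from its 3′ end exceeded that from its 5′ end by 1.85 to 2.16 log2 units in AA and by 1.29 to 1.45 in DMSO. The part of these shifts in the results was not tested.

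Because the difference at 6 h chose the genes, it is described here without a test, and the changes from DMSO 6 h to later times, which use the same control arrays, are described in the same way. The differences between AA and DMSO at 24 h and at 72 h, the change of DMSO cells from 24 h to 72 h and the change of the AA effect from 24 h to 72 h compare none of those arrays and were tested. The 6 h arrays still enter the spread that the fit of all 18 arrays estimates, and calls that change without them are given with the gene. A lack of overlap between AA and DMSO at 6 h is likewise favoured by the choice of the genes. The test was limma across all 9015 genes, with Benjamini-Hochberg adjustment and a threshold of adjusted p under 0.05. RNA came from whole cultures, so fewer cells with a transcript and less of it per cell cannot be told apart.

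**Figure D1:**
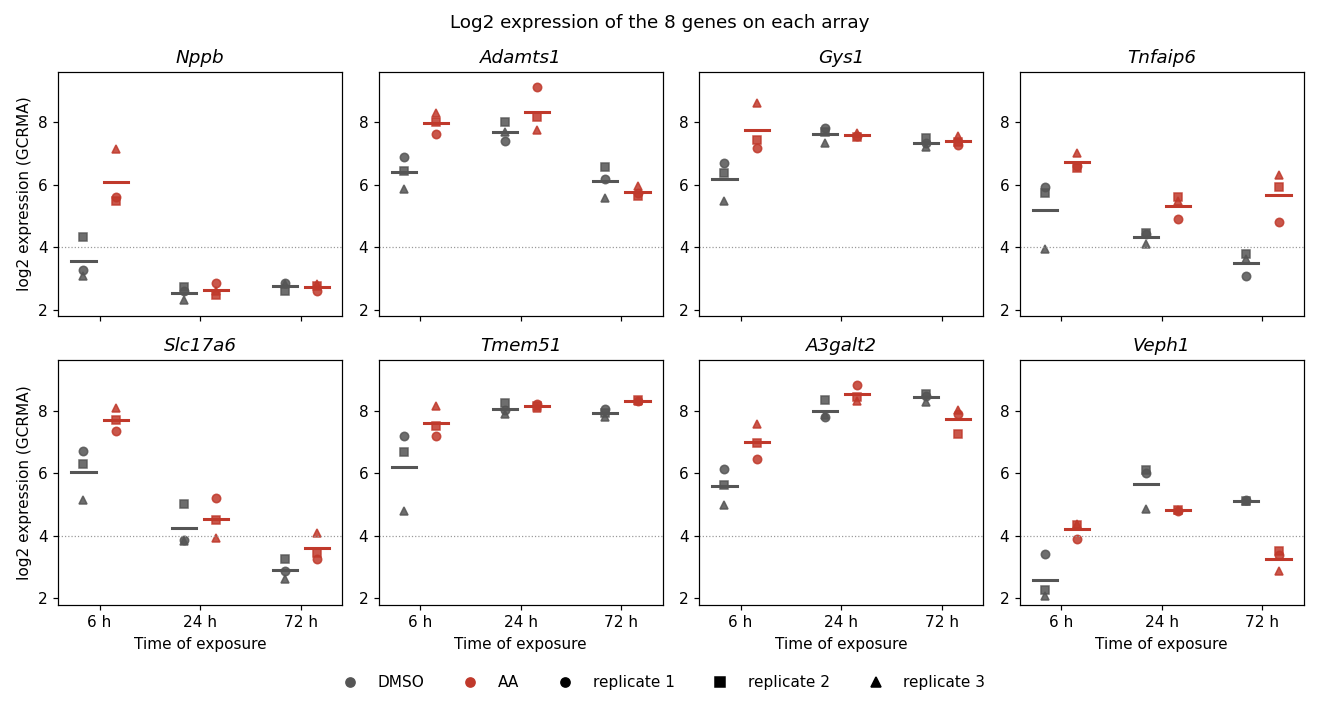
Log2 expression (vertical axis) of the 8 genes on each of the 18 arrays at 6, 24 and 72 h of exposure (horizontal axis). Grey points are DMSO and red points AA, the shape gives the replicate number, bars are group means of 3 arrays, and the dotted line is log2 4. At 6 h every AA array lies above every DMSO array for each gene, and the genes were chosen by the size of that difference; at 72 h Tnfaip6 lies higher and Veph1 lower in AA.

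Nppb, the natriuretic peptide gene, had the largest difference at 6 h. On probe set 1367616_at its level was 5.61, 5.49 and 7.13 on the AA 6 h arrays and 3.28, 4.33 and 3.09 on the DMSO 6 h arrays. The groups did not overlap, and AA replicate 3 stood above the other AA arrays. The log2 difference was 2.51 ± 0.35 (SE, n = 3), a fold of 5.70, from a DMSO mean of 3.57 that was near the floor. With values under log2 4 raised to 4 the difference was 1.97. At 24 h the level was 2.85, 2.47 and 2.61 in AA and 2.62, 2.74 and 2.31 in DMSO, and at 72 h it was 2.60, 2.76 and 2.82 in AA and 2.87, 2.62 and 2.82 in DMSO. All 12 of these later arrays were near the floor, and only the 4 arrays at 6 h that reached log2 4 brought the gene past the filter on low values. Differences of 0.09 at 24 h (adjusted p = 0.968) and -0.04 at 72 h (adjusted p = 0.936) did not pass limma's test, with 95% intervals from -0.64 to 0.82 and from -0.76 to 0.69. In order of mean level, AA 6 h lay above DMSO 6 h and DMSO 6 h above DMSO 72 h, each without overlap. The ranges of the neighbours among the last 4 groups overlapped.

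The stretch of DNA just before the Nppb gene is shown with those of Tnfaip6, Adamts1 and Tmem51, the other genes with a searched motif in the printed stretch. They are RefSeq promoter sequences of build GRCr8, 5′ to 3′ on the gene's strand, ending before the first annotated base of the gene, with motif matches in capitals.
Nppb chr5:163699758-163699954, plus strand: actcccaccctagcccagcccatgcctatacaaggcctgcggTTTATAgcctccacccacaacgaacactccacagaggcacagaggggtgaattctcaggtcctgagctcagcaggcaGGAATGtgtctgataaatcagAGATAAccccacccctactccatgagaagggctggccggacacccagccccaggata
Tnfaip6 chr3:56911148-56911397, plus strand: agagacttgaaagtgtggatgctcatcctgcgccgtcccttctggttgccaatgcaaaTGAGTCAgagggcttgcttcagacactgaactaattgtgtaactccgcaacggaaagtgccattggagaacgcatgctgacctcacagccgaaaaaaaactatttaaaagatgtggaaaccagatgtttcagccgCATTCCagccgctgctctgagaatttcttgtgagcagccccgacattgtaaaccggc
Adamts1 chr11:38427385-38427634, minus strand: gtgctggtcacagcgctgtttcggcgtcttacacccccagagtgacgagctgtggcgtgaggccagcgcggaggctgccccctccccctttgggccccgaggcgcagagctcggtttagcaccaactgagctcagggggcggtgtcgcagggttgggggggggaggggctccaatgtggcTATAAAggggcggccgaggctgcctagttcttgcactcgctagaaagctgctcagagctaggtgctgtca
Tmem51 chr5:159658919-159659141, minus strand: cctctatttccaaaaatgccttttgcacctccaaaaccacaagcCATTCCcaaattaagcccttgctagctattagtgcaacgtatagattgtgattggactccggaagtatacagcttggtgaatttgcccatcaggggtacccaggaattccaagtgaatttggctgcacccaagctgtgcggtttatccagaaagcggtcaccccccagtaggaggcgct
All 8 genes matched an entry of the promoter table. Motifs were searched on both strands of the 250 bases before each listed start, in the 8 genes and in all 27457 promoters. GGAATG, the core of the TEAD motif, was in 4 of the 8 (Nppb, Tnfaip6, Tmem51 and A3galt2) and in 11.8% of all promoters. The A3galt2 match, 82 to 77 bases before the listed start, lies inside the annotated span of the gene and is not printed. TATAAA was in Nppb and Adamts1, 2 of the 8, and in 13.1% of all promoters. The AP-1 motif TGANTCA was in 1 of the 8, Tnfaip6, as TGAGTCA at 192 to 186 bases before the start, and in 6.36% of all promoters. AGATAA, the motif of GATA factors, was in 1 of the 8, Nppb, and in 10.1% of all. TGACGT, a core of the cyclic AMP response element, and CACGTG, the E-box, were in 0 of the 8, against 7.25% and 5.79% of all promoters. Of the 250 bases searched, the last 53 for Nppb and the last 27 for Tmem51 lie inside the gene's annotated span and are not printed. Distances count those bases. In Nppb the GGAATG and AGATAA matches lie 131 to 126 and 110 to 105 bases before the listed start. The matches overlap no other match, and they are descriptions of letters, since binding was not measured.

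Tnfaip6 was the 1 gene of the 8 with every AA array above every DMSO array at all 3 times, and its difference at 72 h passed the test. On probe set 1371194_at the level at 6 h was 6.58, 6.54 and 7.01 in AA and 5.93, 5.73 and 3.94 in DMSO. No values overlapped, and DMSO replicate 3 stood far below the other DMSO arrays. The difference at 6 h was 1.51 ± 0.41 (SE, n = 3). The level at 24 h was 4.89, 5.60 and 5.46 in AA and 4.43, 4.46 and 4.09 in DMSO. The groups were again apart, as for 9.04% of all genes in that direction, yet the difference of 0.99 ± 0.41 did not pass limma's test (adjusted p = 0.327, n = 3). At 72 h the level was 4.81, 5.91 and 6.31 in AA and 3.09, 3.78 and 3.61 in DMSO, so that all AA arrays exceeded the controls, which were near the floor. Over all genes, 34.4% had every AA array above every control at 72 h. Tnfaip6 rose in AA at 72 h by 2.18 ± 0.41, a fold of 4.54 (limma adjusted p = 0.000205, n = 3). Across 17 alternative settings the adjusted p ran from 4.76e-05 to 0.00234. In DMSO alone the mean went from 5.20 ± 1.09 (SD, n = 3) at 6 h to 4.33 ± 0.20 at 24 h and 3.50 ± 0.36 at 72 h. The step from 24 h to 72 h, at -0.83, did not pass (adjusted p = 0.124). It passed when only the arrays compared were fitted (adjusted p = 0.0116), and over the alternatives the adjusted p ran from 0.0116 to 0.557. The change of the AA effect from 24 h to 72 h was 1.19 ± 0.58 and did not pass (adjusted p = 0.122), but did without AA 72 h replicate 1, at 1.63 (adjusted p = 0.0291, the lowest of the alternatives, against 0.363 at the highest). In order of mean level AA 6 h stood above AA 72 h without overlap and DMSO 24 h above DMSO 72 h without overlap, while the neighbours from AA 72 h through AA 24 h and DMSO 6 h to DMSO 24 h overlapped. The second probe set, 1371193_at, read between 2.06 and 2.12 on all 18 arrays, at the floor, and shows no difference either way.

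Adamts1, the matrix protease, was high at 6 h in AA and at 24 h in both treatments. Probe set 1368223_at gave 7.60, 7.98 and 8.27 in AA 6 h against 6.87, 6.43 and 5.87 in DMSO 6 h, without overlap. The difference was 1.56 ± 0.31 (SE, n = 3). At 24 h the values were 9.11, 8.16 and 7.73 in AA and 7.38, 7.99 and 7.67 in DMSO, and the groups overlapped. That difference of 0.65 ± 0.31 did not pass (limma adjusted p = 0.438, 95% interval 0.01 to 1.30, n = 3), and without AA replicate 1 it was 0.26. At 72 h the level was 5.74, 5.65 and 5.95 in AA and 6.17, 6.57 and 5.56 in DMSO, again overlapping, with a difference of -0.32 (adjusted p = 0.413, 95% interval -0.97 to 0.32). With time in DMSO the mean was 6.39 ± 0.50 (SD, n = 3) at 6 h, 7.68 ± 0.31 at 24 h and 6.10 ± 0.51 at 72 h. From 24 h to 72 h in DMSO, Adamts1 fell by 1.58 on the log2 scale (SE 0.31, limma adjusted p = 0.000559, n = 3). Every 72 h array lay below every 24 h array, as for 25.9% of all genes. The change of the AA effect from 24 h to 72 h, -0.97 ± 0.44, did not pass (adjusted p = 0.0963). Without AA 24 h replicate 3 it was -1.27 (adjusted p = 0.0308) and without DMSO 72 h replicate 3 it was -1.24 (adjusted p = 0.0391), and over the alternatives the adjusted p ran from 0.0308 to 0.294. By mean level the order was AA 24 h, AA 6 h, DMSO 24 h, DMSO 6 h, DMSO 72 h and AA 72 h, and of the neighbours only DMSO 24 h and DMSO 6 h were separated.

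Gys1, the glycogen synthase gene, had its lowest level in DMSO 6 h. Its probe set 1374541_at read 7.18, 7.43 and 8.61 in AA 6 h and 6.69, 6.37 and 5.48 in DMSO 6 h, with no overlap and a difference of 1.56 ± 0.29 (SE, n = 3). At 24 h it read 7.55, 7.52 and 7.66 in AA and 7.80, 7.68 and 7.34 in DMSO, and at 72 h 7.27, 7.37 and 7.56 in AA and 7.32, 7.49 and 7.19 in DMSO. AA and DMSO overlapped at both later times. The differences were -0.03 at 24 h (limma adjusted p = 0.99, 95% interval -0.63 to 0.58, n = 3) and 0.06 at 72 h (adjusted p = 0.877, 95% interval -0.54 to 0.67). DMSO cells stood at 6.18 ± 0.63 (SD, n = 3) at 6 h, 7.61 ± 0.24 at 24 h and 7.33 ± 0.15 at 72 h, and the step from 24 h to 72 h did not pass (-0.28, adjusted p = 0.499). In order of level the 5 groups other than DMSO 6 h each overlapped the next, and DMSO 6 h lay below all of them.

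Tmem51, too, was lowest in DMSO 6 h, and its difference moved most when a single array was left out. On 1383314_at the AA 6 h arrays read 7.20, 7.49 and 8.14 and the DMSO 6 h arrays 7.18, 6.67 and 4.78. The lowest AA and the highest DMSO value nearly touched, and DMSO replicate 3 lay far below the rest. The difference at 6 h was 1.40 ± 0.37 (SE, n = 3), and 0.68 without that array. At 24 h the values were 8.19, 8.15 and 8.09 in AA and 8.01, 8.25 and 7.90 in DMSO, overlapping, with a difference of 0.09 (limma adjusted p = 0.972, 95% interval -0.69 to 0.86). At 72 h they were 8.31, 8.33 and 8.30 in AA and 8.05, 7.92 and 7.79 in DMSO. All AA arrays were above all DMSO arrays there, but the difference of 0.39 ± 0.37 did not pass in the fit of all arrays (adjusted p = 0.406, n = 3). That standard error includes the spread of DMSO 6 h. Without the 6 h arrays the same 0.39 passed (adjusted p = 0.0074), as it did with only the 72 h arrays (0.0124), and over the 17 alternatives the adjusted p ran from 0.0074 to 0.569. In DMSO the mean was 6.21 ± 1.27 (SD, n = 3) at 6 h, 8.05 ± 0.18 at 24 h and 7.92 ± 0.13 at 72 h, the step from 24 h to 72 h not passing (-0.14, adjusted p = 0.815). AA 72 h stood highest and apart from AA 24 h, the next 3 neighbours overlapped down to AA 6 h, and AA 6 h lay above DMSO 6 h. The second probe set, 1380378_at, stayed between 2.46 and 2.56 on all arrays, at the floor.

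A3galt2, the glycosphingolipid galactosyltransferase gene, was higher in AA at 6 h and lower at 72 h. Values of 1370561_at were 6.46, 6.96 and 7.57 in AA 6 h and 6.14, 5.64 and 4.98 in DMSO 6 h, without overlap, a difference of 1.41 ± 0.28 (SE, n = 3). At 24 h they were 8.83, 8.44 and 8.32 in AA and 7.81, 8.33 and 7.86 in DMSO, overlapping through a single control array, and the difference of 0.53 ± 0.28 did not pass (limma adjusted p = 0.5, n = 3). At 72 h they were 7.90, 7.26 and 8.01 in AA and 8.45, 8.53 and 8.28 in DMSO, every AA array below every control, as for 25.2% of all genes. At 72 h A3galt2 fell by 0.70 on the log2 scale (SE 0.28, adjusted p = 0.0436, n = 3). The call was lost in 8 of 17 alternative settings, among them without AA replicate 2 (-0.47, adjusted p = 0.218), without any 1 DMSO array at 72 h (adjusted p of 0.0952, 0.113 and 0.0568) and with the replicate number as a block (0.054). Over all alternatives the adjusted p ran from 0.00748 to 0.218. The AA effect on A3galt2 changed from 24 h to 72 h by -1.23 on the log2 scale (SE 0.39, adjusted p = 0.0207), a call lost in 4 of 23 alternatives, those with no filter (0.0558) and without AA 24 h replicate 1 (-1.08, 0.06), DMSO 24 h replicate 1 (-1.13, 0.0506) and AA 72 h replicate 2 (0.0668). The range over alternatives was 0.00301 to 0.0668. In DMSO the mean of A3galt2 was 5.59 ± 0.58 (SD, n = 3) at 6 h and 8.42 ± 0.13 at 72 h, and the step of 0.42 from 24 h to 72 h did not pass (adjusted p = 0.256). In order of level the first 5 groups, AA 24 h, DMSO 72 h, DMSO 24 h, AA 72 h and AA 6 h, overlapped their neighbours, and DMSO 6 h lay below AA 6 h without overlap.

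Veph1 changed sides. On 1377437_at the level at 6 h was 3.91, 4.33 and 4.39 in AA and 3.43, 2.27 and 2.06 in DMSO, without overlap, and the DMSO arrays were near the floor. The difference was 1.63 ± 0.32 (SE, n = 3), and with values under log2 4 raised to 4 it was 0.24. At 24 h AA read 4.78, 4.84 and 4.84 and DMSO 6.01, 6.10 and 4.86. AA lay below DMSO on every array, as for 10.4% of all genes, with DMSO replicate 3 just above the AA arrays, and the difference of -0.84 ± 0.32 did not pass (limma adjusted p = 0.271, n = 3). At 72 h AA read 3.38, 3.50 and 2.87, near the floor, and DMSO 5.13, 5.10 and 5.11. At 72 h Veph1 fell by 1.86 on the log2 scale (SE 0.32, adjusted p = 8.44e-05, n = 3), to a fold of 0.275. Over 17 alternatives the adjusted p ran from 4.53e-05 to 0.000935, and with values under log2 4 raised to 4 the difference was -1.11. In DMSO the mean was 2.59 ± 0.74 (SD, n = 3) at 6 h, 5.65 ± 0.69 at 24 h and 5.11 ± 0.02 at 72 h. The last step of -0.54 did not pass (adjusted p = 0.206), and passed without DMSO 24 h replicate 3, at -0.94 (adjusted p = 0.0253, against 0.542 at the highest of the alternatives). The change of the AA effect from 24 h to 72 h, -1.03 ± 0.45, did not pass (adjusted p = 0.0896), and did without the 6 h arrays or with only the arrays compared (adjusted p = 0.0469 in both, the lowest of the alternatives, against 0.533 at the highest). In order of level DMSO 24 h and DMSO 72 h overlapped, as did AA 72 h and DMSO 6 h at the bottom, and DMSO 72 h, AA 24 h, AA 6 h and AA 72 h were each separated from the next.

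Slc17a6, the vesicular glutamate transporter gene, was highest at 6 h and lower at each later time in both treatments. Its probe set 1368564_at read 7.33, 7.71 and 8.08 in AA 6 h and 6.71, 6.28 and 5.13 in DMSO 6 h, without overlap, a difference of 1.67 ± 0.39 (SE, n = 3). At 24 h it read 5.22, 4.49 and 3.91 in AA and 3.86, 5.02 and 3.84 in DMSO, and at 72 h 3.25, 3.46 and 4.08 in AA and 2.86, 3.26 and 2.63 in DMSO. The treatments overlapped at both later times. The differences, 0.30 at 24 h (limma adjusted p = 0.857, 95% interval -0.52 to 1.12, n = 3) and 0.68 ± 0.39 at 72 h (adjusted p = 0.163), did not pass. With values under log2 4 raised to 4 the difference at 72 h was 0.03 (limma adjusted p = 0.965). The DMSO mean was 6.04 ± 0.82 (SD, n = 3) at 6 h, 4.24 ± 0.68 at 24 h and 2.92 ± 0.32 at 72 h. From 24 h to 72 h in DMSO, Slc17a6 fell by 1.32 on the log2 scale (SE 0.39, adjusted p = 0.0129, n = 3), to a level near the floor. The call was lost in 3 of 17 alternatives, without DMSO 24 h replicate 2 (-0.93, adjusted p = 0.0904), without DMSO 72 h replicate 3 (-1.18, 0.0543) and with values under log2 4 raised to 4 (-0.34, 0.484), and the lowest adjusted p was 0.00937. AA 6 h lay above DMSO 6 h without overlap, and all later neighbours in the order overlapped.

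**Figure D2:**
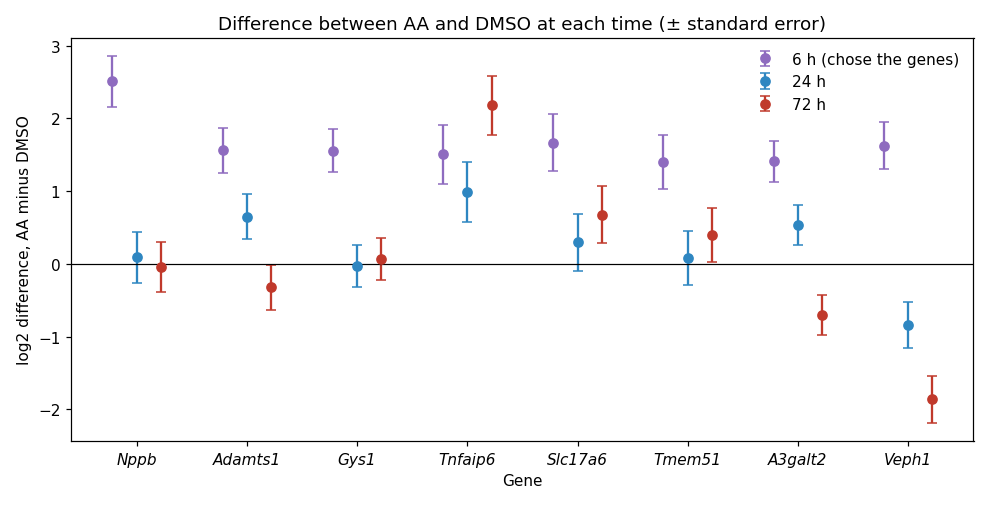
Log2 difference between AA and DMSO (vertical axis) for each gene (horizontal axis) at 6, 24 and 72 h; points are limma estimates from 3 arrays against 3 and bars their standard errors. The 6 h points chose the genes. At 24 h the points run from -0.84 for Veph1 to 0.99 for Tnfaip6, and at 72 h Tnfaip6 stands at 2.18 and Veph1 at -1.86.

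As a group the 8 genes had a median difference of 1.56 at 6 h, which follows from their choice, against 0.01 over all genes tested. All 8 had every AA 6 h array above every DMSO 6 h array, as 18.9% of all genes did. The choice on these same arrays favours that too, so it is no separate result. At 24 h their median was 0.20 and that of all genes -0.01. Of the 8 genes 0 passed limma's test at 24 h, where 2.09% of all genes passed (1.81% higher, 0.277% lower), and 3 had an unadjusted p under 0.05 (Adamts1 and Tnfaip6 higher, Veph1 lower), as had 1006 of the 9015 genes. At 72 h the median was 0.01 against 0.05 over all genes, with 1 gene risen (Tnfaip6), 2 fallen (Veph1 and A3galt2) and 5 not passing, 3 of 8 where 47.2% of all genes passed (27.4% higher, 19.8% lower). In DMSO from 24 h to 72 h, 0 rose, 2 fell (Adamts1 and Slc17a6) and 6 did not pass, where 34.3% of all genes passed (17.2% higher, 17.1% lower). The AA effect changed from 24 h to 72 h for 1 gene, A3galt2, where 32.4% of all genes passed (18.7% upward, 13.7% downward). Nppb counts as not passing in all 4 tests, but it entered them only through 6 h arrays and was near the floor on every later array. These tests could hardly have called it. With the filter on the 24 h and 72 h arrays 7 of the genes remained, and the counts past the test were again 0, 3, 2 and 1.

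The controls themselves differed widely between 6 h and 24 h. From 6 h to 24 h in DMSO, Veph1 was higher by 3.07 ± 0.32, A3galt2 by 2.41 ± 0.28, Tmem51 by 1.85 ± 0.37, Gys1 by 1.42 ± 0.29 and Adamts1 by 1.29 ± 0.31 (SE, n = 3), each without overlap between the times. For A3galt2, Tmem51 and Gys1 the level at 24 h and 72 h in both treatments thus lay above DMSO 6 h on every array. Slc17a6, at -1.80 ± 0.39, Nppb, at -1.01 ± 0.35, and Tnfaip6, at -0.87 ± 0.41, were lower at 24 h, the first pair without overlap. With values under log2 4 raised to 4, the step was -0.11 for Nppb and 1.65 for Veph1. Over all genes tested, 31.3% had every DMSO 24 h array above every DMSO 6 h array and 32.9% had every one below. From 6 h to 72 h in DMSO the differences were 2.83 for A3galt2, 2.53 for Veph1, 1.71 for Tmem51, 1.15 for Gys1, -0.29 for Adamts1, -0.80 for Nppb, -1.71 for Tnfaip6 and -3.12 for Slc17a6, all but Adamts1 without overlap. With values under log2 4 raised to 4 they were -0.11 for Nppb, 1.11 for Veph1 and -2.04 for Slc17a6. Over all genes 36.7% lay above and 39.5% below without overlap. These comparisons share the DMSO 6 h arrays with the difference that chose the genes.

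The 6 h arrays of replicate 3 held the extremes for all 8 genes: AA replicate 3 was the highest of the 3 AA arrays and DMSO replicate 3 the lowest of the 3 DMSO arrays in 8 of 8. Both held for 16.1% of all genes tested and for 36.6% of the 1692 other genes whose AA 6 h arrays all lay above the DMSO 6 h arrays. The 8 genes were chosen by size on these same arrays, which favours such extremes, and the 1692 were not chosen by size. Without both arrays, a setting chosen after seeing this, the difference at 6 h was 1.74 for Nppb, 1.28 for Veph1, 1.14 for Adamts1, 1.03 for Slc17a6, 0.82 for A3galt2, 0.77 for Gys1, 0.73 for Tnfaip6 and 0.42 for Tmem51. Without DMSO replicate 3 alone, Tnfaip6 was at 0.88 and Tmem51 at 0.68, and without AA replicate 3 alone Nppb was at 1.98 and Gys1 at 1.12. For the Gapdh control, signal from the 3′ end less that from the 5′ end, in log2, was -0.31 on AA replicate 3 and -0.34 on DMSO replicate 3, against -0.22 to -0.23 on the other 6 h arrays. That of the hexokinase control was 0.87 and 0.67, against 0.77 to 1.14. The part of these differences in the result was not tested.

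**Figure D3:**
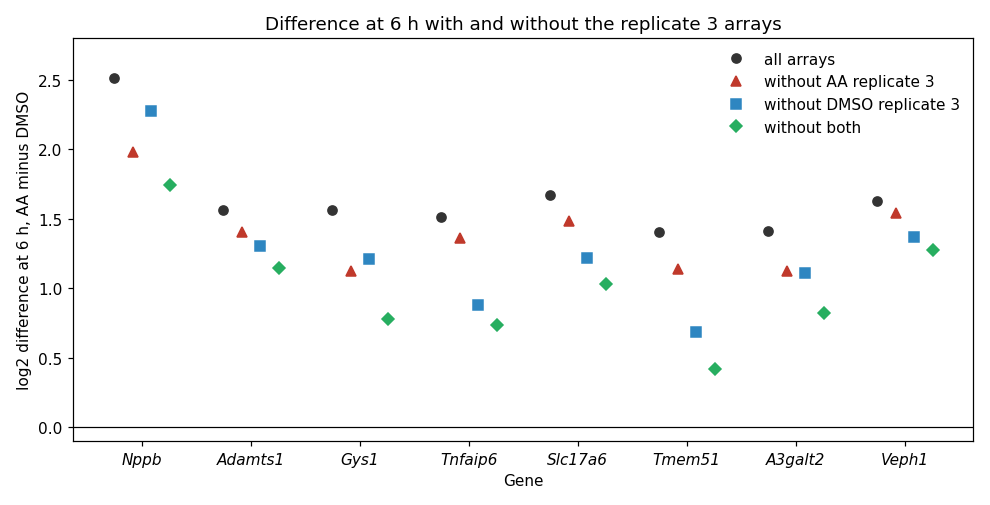
Log2 difference between AA and DMSO at 6 h (vertical axis) for each gene (horizontal axis) with all 6 arrays of that time, without AA replicate 3, without DMSO replicate 3 and without both. Every point is above 0, and without both arrays they run from 0.42 for Tmem51 to 1.74 for Nppb.

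The genes near the 8 in size at 6 h show where the choice stopped, and their values are a description only. Ankrd1, a muscle ankyrin repeat gene that was not among the 8, had a difference of 1.69, and Dact2, a modulator of Wnt signalling, one of 1.41. The smallest of the 8, Tmem51 at 1.40, lay just above Sfn at 1.37 and Col14a1 at 1.33. Across the 18 arrays the genes did not follow one profile. Their pairwise Pearson correlations ran from -0.53 (Slc17a6 with A3galt2) to 0.86 (Gys1 with Tmem51), over arrays that share the times of culture. The gene whose profile was most like each, over 18 arrays, was Lrrfip1 for Slc17a6 (r = 0.97), Cpped1 for A3galt2 (0.97), Ercc1 for Nppb (0.94), C1h19orf33 for Tmem51 (0.93), Harbi1 for Tnfaip6 (0.93), Septin9 for Adamts1 (0.92), Cilk1 for Veph1 (0.92) and Bckdk for Gys1 (0.90). For the mean of the 8 scaled profiles the nearest genes were Clic1 (0.93), Emp3 (0.92), Arfrp1 (0.91), Ilk (0.89) and Lrwd1 (0.88).

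Tnfaip6 belongs to the hyaluronan genes, 3 others of which were, like it, higher in AA than in DMSO at 72 h. Of 22 hyaluronan synthesis and binding genes 7 were tested, and at 72 h 4 rose, 0 fell and 3 did not pass, against 27.4% of all genes risen. Hapln3, a link protein that ties hyaluronan to proteoglycans, rose by 3.88 ± 0.27 from a level near the floor (limma adjusted p = 6.39e-10, n = 3). Cd44, the main hyaluronan receptor, was higher in AA by 2.30 ± 0.27 (adjusted p = 1.18e-06) and the hyaluronidase family gene Hyal3 by 1.03 ± 0.21 (adjusted p = 0.000574). For Cd44 the AA mean was 6.59 at 24 h and 6.94 at 72 h, while the DMSO mean fell from 6.43 to 4.64. That step in DMSO was -1.79 (limma adjusted p = 5.27e-05). The list median at 72 h was 1.03, against 0.05 over all genes. At 24 h 1 of the 7 was higher in AA, Hmmr, a hyaluronan-binding protein of the mitotic spindle, by 0.99 ± 0.22 (adjusted p = 0.0185). That call was lost in 6 of 17 alternatives, with adjusted p between 0.00755 and 0.0971. Hmmr was lower at 24 h than at 6 h in both treatments, with means of 8.57 and 7.08 in AA and 8.38 and 6.09 in DMSO. The DMSO mean was then 7.65 at 72 h, a step of 1.56 from 24 h (limma adjusted p = 2.63e-05).

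In glycogen metabolism Gys1 did not pass the test at 24 h or 72 h. Of 26 genes 16 were tested, and at 72 h 3 rose, 4 fell and 9 did not pass, where 27.4% of all genes rose and 19.8% fell. Gbe1, the branching enzyme, fell by 3.12 on the log2 scale at 72 h (SE 0.12, limma adjusted p = 8.88e-14, n = 3). The phosphorylase kinase subunit genes Phkb and Phka1 fell by 0.94 and 0.74 (adjusted p = 5.33e-06 and 0.022). The second call was lost in 4 of 17 alternatives, which ran from 0.00641 to 0.0842. A further subunit gene of that kinase, Phkg2, went the other way and rose by 0.32 (adjusted p = 0.00698). Stbd1, which anchors glycogen to membranes, rose by 0.74 (adjusted p = 2.34e-05). At 24 h 0 rose and 1 fell, Gbe1, by 0.50 on the log2 scale (adjusted p = 0.0218), a call lost in 8 of 17 alternatives with adjusted p from 0.00749 to 0.152. The median was 0.10 at 72 h and -0.04 at 24 h.

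The 4 lists that follow stand beside the same shares of all genes, 27.4% risen and 19.8% fallen at 72 h and 1.81% and 0.277% at 24 h. Of 27 ADAMTS proteases, their inhibitors and substrates, 6 were tested, and at 72 h 2 rose and 1 fell. Adamts10, a relative of Adamts1 in microfibrils, was lower in AA by 1.51 on the log2 scale (SE 0.20, limma adjusted p = 5.66e-06, n = 3). Its AA mean was 6.99 at 24 h and 7.15 at 72 h, while its DMSO mean rose from 7.43 to 8.66. That step in DMSO was 1.23 (limma adjusted p = 0.000116). The inhibitor genes Timp1 and Timp3 rose by 0.37 and 0.53 (adjusted p = 3.53e-05 and 0.0498), the second call lost in 10 of 17 alternatives, which ran from 0.00942 to 0.159. At 24 h 0 of the 6 passed, as adjusted over all genes, and the median was 0.29 at 24 h and 0.04 at 72 h. Of 14 natriuretic peptide system genes 4 were tested. At 72 h the protease gene Furin, whose product cleaves peptide precursors, was higher in AA by 0.59 ± 0.11 (adjusted p = 0.000279). Its AA mean was 10.25 at 24 h and 10.23 at 72 h, while its DMSO level fell by 0.46 between these times (adjusted p = 0.00378). Mme, the peptide-degrading neprilysin gene, was lower in AA at 72 h by 0.55 on the log2 scale (adjusted p = 0.0458). That call was lost in 9 of 17 alternatives, which ran from 0.0264 to 0.245. At 24 h 0 of the 4 passed, with medians of 0.07 at 24 h and -0.02 at 72 h. Of 9 SLC17 transporters 2 were tested, Slc17a6 and Slc17a5. Slc17a5, the lysosomal sialic acid transporter gene, was higher in AA at 72 h by 0.54 ± 0.13 (adjusted p = 0.00173). Its AA mean was 9.98 at 24 h and 10.33 at 72 h, while its step in DMSO between these times was -0.34 (limma adjusted p = 0.0492). At 24 h 0 of the pair passed. Their medians were 0.08 at 24 h and 0.61 at 72 h. Of 13 glycosphingolipid glycosylation genes 7 were tested, and at 72 h 3 rose, 3 fell and 1 did not pass. Besides A3galt2, the largest were the ganglioside synthase gene St3gal5 (0.66), the alpha-galactosidase gene Gla (0.56) and the glucosylceramide synthase gene Ugcg (0.54), which were higher in AA (adjusted p = 8.54e-05, 9.42e-05 and 0.00265). The step in DMSO from 24 h to 72 h was -0.29 for Gla (limma adjusted p = 0.0266), and it did not pass for St3gal5 or Ugcg. At 24 h 0 of the 7 passed, and the medians were 0.09 at 24 h and -0.06 at 72 h.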

How the data were processed

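Expression of NRK-52E cells was measured on 18 Affymetrix arrays in 6 groups of 3. The authors deposited log2 values; GCRMA is named in the submitters' processing notes, with no version, and the labels and notes name no genome build. Of 31099 probe sets, 57 were controls and were left out; the platform annotation gave 1 symbol to 20826 of the others, and 20758 of these found a current rat symbol through their gene number. Each gene was read from its brightest probe set on average. Those reaching log2 4 on 3 arrays or more were fitted together with limma 3.58.1 in R 4.3.3 (group means, empirical Bayes with an intensity trend, 12 residual and 7.27 prior degrees of freedom), with Benjamini-Hochberg adjustment over all 9015. The steps were tested on simulated data. For arrays, their number limits the precision. The genes, the pathway lists and the marker lists were chosen with earlier results of these data known. The genes named were these, those between or just below them in rank at 6 h, the 4 largest changes past the test in each list at 24 h and at 72 h, and the nearest profiles. Phkg2 was named besides, as a further phosphorylase kinase subunit gene. The alternatives were other filters, scalings, floors, fits and probe sets, a replicate block and leaving out single arrays. Promoter sequences and names are RefSeq's, build GRCr8.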

Additional observations from a re-analysis of the deposited data

Results flagged for a closer look

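The effect of AA on A3galt2 differed between times. From 24 h to 72 h it changed by -1.23 on the log2 scale in the test of the difference itself (limma adjusted p = 0.0207, n = 3). That call was lost in 4 of 23 alternatives, and the call at 72 h alone in 8 of 17. Every AA array of A3galt2 was above the controls at 6 h and below them at 72 h, a change of -2.11. Its 6 h difference was 1.41, and 0.82 without both replicate 3 arrays of that time. For Veph1 every AA array was above the controls at 6 h and below them at 24 h and at 72 h, changes of -2.46 and -3.49. These sizes rest on levels near the floor, since with values under log2 4 raised to 4 the Veph1 difference was 0.24 at 6 h and -1.11 at 72 h. The 3 changes from 6 h were not tested, because the 6 h difference chose the genes.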

How the results depend on the processing

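The count of the 8 genes past the test stayed at 0 at 24 h and between 2 and 4 at 72 h (3 in the fit of all arrays) in all 17 alternatives each. In DMSO from 24 h to 72 h it was 2, 1 with values under log2 4 raised to 4 and 3 when only the groups compared were fitted; leaving out single arrays gave 1 to 3. For the change of the AA effect from 24 h to 72 h it was 1, 0 with no filter on low values, 2 when only the groups compared were fitted and 2 without all 6 h arrays, a setting added after seeing the data; leaving out single arrays gave 0 to 2. The cause was not tested. Of the tested values of single genes among the 8, 564 kept their side of the threshold under an alternative, 15 lost it, 9 gained it and 0 reversed with a call; for the list genes these were 539, 37, 2 and 0. Nppb has 1 alternative fewer, since a filter on the 24 h and 72 h arrays removes it. With the replicate number as a block, counts for the 8 genes were 0 at 24 h and 2 at 72 h, where A3galt2 was at -0.70 (adjusted p = 0.054), 2 in DMSO from 24 h to 72 h and 1 for the change of effect. Deviations of same-numbered AA and DMSO arrays correlated between -0.16 and 0.16, over 0.1 in 1 of 9 pairs, and the labels do not say what the numbers share, so the block was kept as an alternative. Levels near the floor limit Nppb in DMSO at 6 h and in both treatments later, Veph1 in DMSO at 6 h and in AA at 72 h, Slc17a6 at 72 h and Tnfaip6 in DMSO at 72 h, where its difference was 1.68 with values under log2 4 raised to 4.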
